A study of Mus musculus with 8 samples.

Results

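The genes described here are 45 genes of mitosis and the G2/M transition, the step into mitosis. These were taken by name from the 54532 genes of the count table. All 45 were found and passed the filter on low counts that left 17138 genes for testing. They were measured by bulk RNA sequencing of whole lungs from CC-LR mice, in which Cre recombinase inserted in the club cell secretory protein (CCSP) locus switches on an oncogenic K-ras G12D allele in airway club cells and lung tumors form. Both groups carried Cre and the K-ras allele, all mice were 14 weeks of age, and there was no wild-type group. The 4 mice labelled TTI-101 had received this small-molecule inhibitor of STAT3 for 4 weeks, and the 4 mice labelled Control had not. Each mouse gave 1 library, and the labels of both groups read Lung as the tissue. How TTI-101 was given to these 8 mice is not given in the sources used here, and the study used both sexes without naming the sex of each mouse.

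Mitosis is driven by CDK1, a kinase that is active only when bound to a cyclin of the A or B type and that is switched off again when the anaphase-promoting complex, with its activator CDC20, marks cyclin B and securin for destruction. Between these steps the chromosomes condense, their kinetochores attach to spindle microtubules, the spindle checkpoint holds anaphase until every kinetochore is attached, and the central spindle then guides the cut between the daughter cells. The genes for these proteins are transcribed together late in the cell cycle, through B-MYB, the MuvB complex, FOXM1 and NF-Y, and most cells of the adult lung, which seldom divide, carry few of their transcripts. In bulk lung RNA a lower level can come from fewer dividing cells or from less RNA per dividing cell, and these cannot be told apart here.

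Because these genes are known to share promoter letters, their promoters are described before their levels. RefSeq promoter windows on build GRCm38.p6, which run from 250 bases before to 50 bases after the transcription start, matched 37 of the 45 genes with 39 windows. The bases just after the start lay in an annotated transcript of the same gene for 30 of the 39 windows (76.9%). The windows of Kif2c and Cdca8 lay inside the deposited gene and were counted like the others. Windows of Aurkb, Ccna2, Kif20a, Tpx2, Spc24, Pbk, Dlgap5 and Foxm1 were not used here. The stretches from 150 bases before to 30 bases after the start are shown for 8 genes on which the results turn: Mki67 and Top2a, the usual proliferation markers, Cdk1 and Ccnb1, the mitotic kinase and its cyclin, Cenpf, with the lowest fitted fold change, Aurka and Nusap1, whose groups did not overlap, and Cenpa, the one gene that was not lower in the treated mice. Capitals mark CCAAT, the letters bound by NF-Y, and TTTGAA or TTCGAA, letters of the cell cycle homology region. Any other form of that region was not searched. Matches on either strand are marked, so that ATTGG and TTCAAA are the same letters read on the other strand. The 8 stretches were chr7:135716350-135716529 for Mki67, chr11:99024160-99024339 for Top2a, chr10:69352883-69353062 for Cdk1, chr13:100786457-100786636 for Ccnb1, chr1:189688057-189688236 for Cenpf and chr2:172370541-172370720 for Aurka, all on the minus strand, and chr2:119618148-119618327 for Nusap1 and chr5:30666736-30666915 for Cenpa on the plus strand.
Mki67: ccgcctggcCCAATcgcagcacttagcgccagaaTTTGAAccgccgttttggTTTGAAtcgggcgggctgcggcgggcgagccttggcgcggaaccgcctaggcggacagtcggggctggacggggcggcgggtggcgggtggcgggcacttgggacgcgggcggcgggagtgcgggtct
Top2a: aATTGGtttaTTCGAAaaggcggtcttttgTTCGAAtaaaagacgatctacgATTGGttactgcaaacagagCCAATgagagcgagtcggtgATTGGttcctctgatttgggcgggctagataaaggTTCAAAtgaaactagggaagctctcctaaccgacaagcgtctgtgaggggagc
Cdk1: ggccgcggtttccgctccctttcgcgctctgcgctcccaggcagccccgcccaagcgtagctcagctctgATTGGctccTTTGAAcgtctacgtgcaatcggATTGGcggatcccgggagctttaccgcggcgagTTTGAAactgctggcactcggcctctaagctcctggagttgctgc
Ccnb1: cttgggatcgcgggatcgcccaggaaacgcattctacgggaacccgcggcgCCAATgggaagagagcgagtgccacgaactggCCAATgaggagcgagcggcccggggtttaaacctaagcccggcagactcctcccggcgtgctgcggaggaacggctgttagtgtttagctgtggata
Cenpf: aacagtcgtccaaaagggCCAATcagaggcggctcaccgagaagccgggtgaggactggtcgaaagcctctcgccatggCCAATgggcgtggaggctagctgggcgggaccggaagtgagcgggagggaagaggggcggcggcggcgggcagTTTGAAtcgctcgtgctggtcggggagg
Aurka: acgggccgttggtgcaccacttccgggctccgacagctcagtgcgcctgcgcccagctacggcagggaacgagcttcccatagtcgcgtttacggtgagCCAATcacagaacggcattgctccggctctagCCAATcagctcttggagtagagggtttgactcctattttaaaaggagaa
Nusap1: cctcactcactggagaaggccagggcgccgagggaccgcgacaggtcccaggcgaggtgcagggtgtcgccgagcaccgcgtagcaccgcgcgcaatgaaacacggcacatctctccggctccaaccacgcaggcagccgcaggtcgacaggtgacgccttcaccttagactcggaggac
Cenpa: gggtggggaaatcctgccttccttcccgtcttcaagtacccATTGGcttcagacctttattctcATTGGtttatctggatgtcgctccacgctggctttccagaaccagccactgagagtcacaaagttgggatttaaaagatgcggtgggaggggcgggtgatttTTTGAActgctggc

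The Mki67 stretch held 1 CCAAT and 2 TTTGAA, and the Top2a stretch held 4 CCAAT, 1 TTTGAA and 2 TTCGAA. Cdk1 had 2 of each of CCAAT and TTTGAA, with the second TTTGAA close to the start. Ccnb1 and Aurka had 2 CCAAT each and neither TTTGAA nor TTCGAA in the stretch shown, although Aurka had TTTGAA at 33 bases after the start. Cenpf and Cenpa had 2 CCAAT and 1 TTTGAA each, and Nusap1 had none of the letters.

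Over all 39 windows, CCAAT was present in 30 (76.9%), against 37.4% of the 32851 windows in the table, and TTTGAA in 29 (74.4%), against 17.9%. TTCGAA was in 3 windows (7.69%, against 1.56%). The letters TTTGAA were gathered at the start itself, where the stretch from 50 bases before to 50 after held them in 69.2% of the members' windows and in 4.94% of all windows. CCAAT and TTTGAA can share bases where they meet, as in the run TTTGAATTGG of the Cdca8 promoter, and each was counted. Both kinds of letters, CCAAT with TTTGAA or TTCGAA, stood together in 69.2% of the members' windows against 7.52% of all windows. Letters of the STAT site form, TTCNNNGAA, were found in 1 window (2.56%, against 8.30% of all windows), the E2F form TTTCCCGC in 1 (2.56%, against 1.07%) and the E2F form TTTGGCGC in 0 (against 0.514%). All searches covered both strands, a match is a match of letters and not a measured binding site, and RNA was the only readout. The other mitosis genes described further below had TTTGAA in 61% of 41 windows. The genes of the G1/S step and DNA replication, an earlier stage of the cycle, had it in 9.09% of 33 windows. CCAAT differed less between these lists, at 63.4% and 57.6% of their windows. It was in 60% of windows of cell cycle inhibitors and 44.4% of those of E2F, Rb and MuvB regulators. For cell cycle relatives used by cells that build many cilia it was 18.2%. Within the 37 matched genes, the 27 with TTTGAA had a median log2 fold change of -0.49 and the 10 without it had -0.46. The 28 with CCAAT had a median of -0.55 and the 9 without it had -0.37. Neither difference was tested.

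Library depth was 16446481 to 26873509 assigned reads in the controls and 16075855 to 25920509 in the treated mice, and mouse 1 of each group was the deepest. Control 4 stood apart from the other 7 libraries over the whole transcriptome, as it lay at 101.1 on the first principal component of all genes, against -39.35 to 17.92 elsewhere, and 5.56% of its reads came from mitochondrial genes, against 2.01% to 2.85%. Its endothelial markers summed to 876 CPM (a gene's reads scaled to the library's total, with all libraries brought to the same total), against 2363 to 2674 CPM in the other controls. It was also the library with the most mitosis transcripts, so the results of the mitosis genes and the counts of each list are given with and without it.

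TTI-101-treated lungs had lower mean levels of almost the whole list, but no single gene passed correction for all genes tested. The fitted log2 fold change of TTI-101 over Control was below 0 for 44 of the 45 genes (97.8%), against 49.4% of all genes tested, with a median of -0.51 against 0.00 over all genes. At an unadjusted p under 0.05, edgeR's quasi-likelihood test gave 15 genes as lower (33.3%, against 3.58% of all genes) and 0 as higher (against 3.02%). With Benjamini-Hochberg adjustment over all genes the same test called 0 of the 45 and 0% of all genes at an adjusted p under 0.05, and the smallest adjusted p among the 45 was 0.657. Over all genes, 1132 had an unadjusted p under 0.05, limma-voom also gave 0 adjusted calls, and DESeq2 gave 4, none of them among the 45. All p-values measure the spread between these mice. Every treated library was below every control library for 3 genes (6.67%, against 1.43% of all genes), and at least 3 of the 4 treated libraries were below every control for 22 (48.9%, against 9.94% of all genes). A log2 fold change of -0.5 or lower was reached by 23 of the 45 genes and by 9.08% of all genes. The median of mean log2 CPM was 2.43 over the 45 genes and 4.34 over all genes tested. The shares of all genes given here are therefore not matched for level. Genes that act side by side in mitosis share their time of transcription and their cells, so the 45 are not independent of each other.

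The controls were themselves uneven. The median over the 45 genes of log2 CPM minus the gene's mean over 8 libraries was 0.00, 0.31, 0.02 and 0.75 in Control mice 1 to 4, and -0.46, 0.03, -0.20 and -0.42 in TTI-101 mice 1 to 4. Control 4 was thus the highest and TTI-101 2 was level with Control 1 and Control 3. Without Control 4, 40 of the 45 genes were still below 0, the median log2 fold change was -0.27 (all genes 0.02), and 6 genes had an unadjusted p under 0.05 by edgeR (all genes 1.11%). These 6 were Aurka, Pbk, Mki67, Cenpf, Tpx2 and Nusap1, and they were also the genes with an unadjusted p under 0.05 in each of the 8 fits that left out 1 mouse. Over all 45 genes the level in Control 4 had a median of 1.59 times the mean of the other 3 controls (0.986 over all genes), from 0.602 for Cenpa to 3.07 for Ect2. The mean of the treated mice was a median of 0.827 times the mean of Control mice 1 to 3 (1.00 over all genes).

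**Figure D1:**
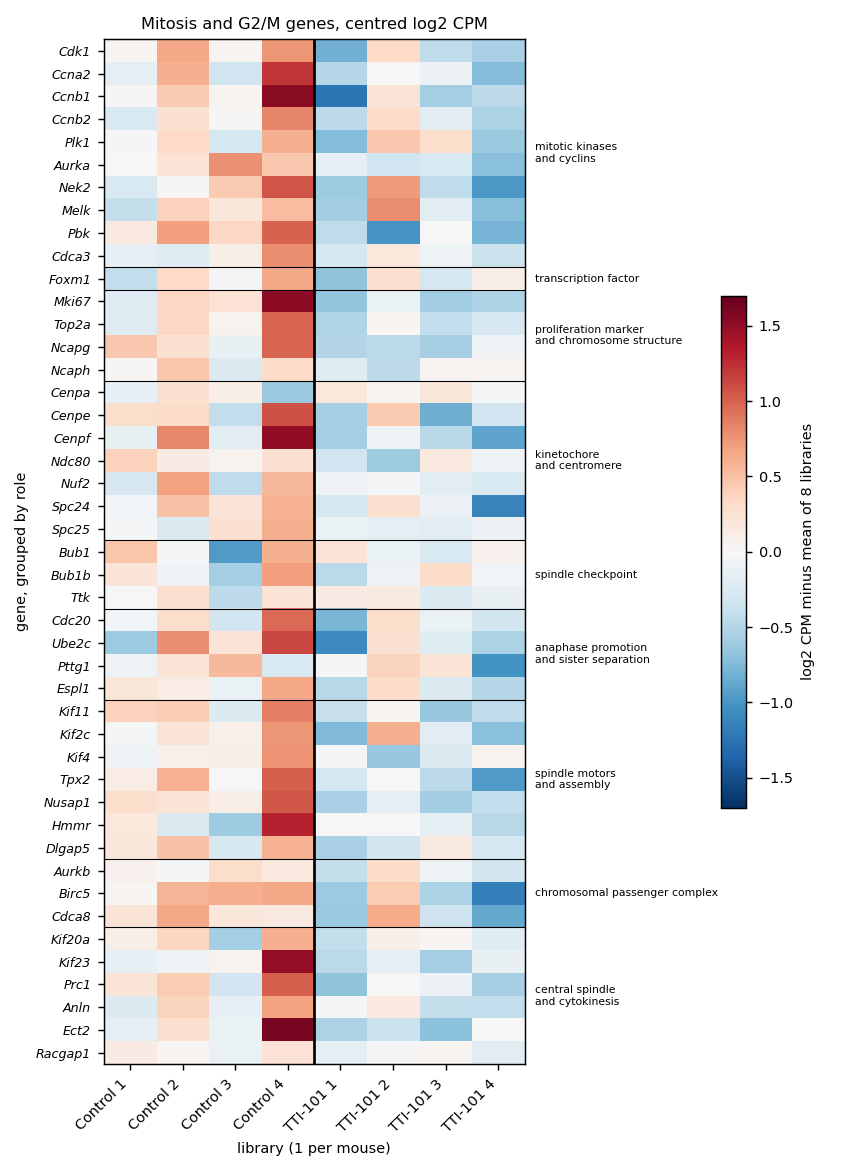
Rows are the 45 mitosis and G2/M genes grouped by role and columns the 8 libraries, and color gives log2 CPM minus the gene's mean over the 8 libraries (red above, blue below). The column of Control 4 is red for most genes, with a median of 0.75, and TTI-101 1, 3 and 4 are mostly blue, with medians of -0.46, -0.20 and -0.42.

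Mitotic kinases and cyclins, listed with Cdca3, which is neither, came first in the order of mitotic entry. All 10 genes had a fitted log2 fold change below 0. Their median was -0.64, with 4 at an unadjusted p under 0.05 by edgeR (-0.33 and 2 without Control 4). Cdk1, the kinase that starts mitosis, was at 7.26, 11.1, 7.21 and 12.0 CPM in Control mice 1 to 4 and at 3.96, 9.01, 5.23 and 4.80 CPM in TTI-101 mice 1 to 4. All treated mice but TTI-101 2 were below every control. For Cdk1 the fit gave a log2 fold change of -0.71 (SE 0.30, unadjusted p = 0.0413), or -0.56 without Control 4. Ccnb1 encodes cyclin B1, the partner of CDK1, and was at 3.82, 5.14, 3.88 and 11.1 CPM in the controls and at 1.55, 4.38, 2.50 and 2.74 CPM in the treated mice. Control 4 was far above the rest, and TTI-101 2 again lay among the other controls. For Ccnb1 the fit gave a log2 fold change of -1.10 (SE 0.43, unadjusted p = 0.0275), or -0.61 without Control 4. Ccnb2, the second B-type cyclin, was at 4.73, 6.82, 5.77 and 10.2 CPM against 4.15, 7.09, 5.003 and 3.89 CPM. These groups overlapped more than those of Ccnb1, and the log2 fold change was -0.45 (SE 0.30, unadjusted p = 0.166), or -0.19 without Control 4. A processed copy, Ccnb2-ps, held 497 reads against the 889 of Ccnb2, so reads could be split between gene and copy and the level of Ccnb2 is uncertain.

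Aurka encodes Aurora A, the kinase of the spindle poles, and was at 4.95, 5.86, 8.60 and 6.84 CPM in the controls and at 4.48, 3.90, 4.11 and 2.98 CPM in the treated mice. The groups did not overlap, and the highest control was mouse 3 and not mouse 4. Control mice averaged 6.56 ± 1.56 CPM and TTI-101 mice 3.87 ± 0.640 CPM (SD, n = 4). For Aurka the fit gave a log2 fold change of -0.76 (SE 0.25, unadjusted p = 0.0131), and -0.72 without Control 4. An exact two-sided permutation test over the 70 assignments of mice gave p = 0.0286, the smallest that 4 against 4 mice can give. Groups that do not overlap always give this value, so it only restates the lack of overlap. It is not corrected for the number of genes. Pbk, a mitotic kinase also known as TOPK, was at 2.57, 3.77, 2.94 and 4.67 CPM in the controls and at 1.66, 1.08, 2.28 and 1.28 CPM in the treated mice. Here too no treated mouse reached a control, and TTI-101 2, the least lowered mouse for most genes, was the lowest. For Pbk the fit gave a log2 fold change of -1.14 (SE 0.34, unadjusted p = 0.00681), or -0.95 without Control 4. The exact two-sided permutation p was 0.0286, again fixed by the lack of overlap. These CPM rest on 18 to 73 reads per library. Nek2, a kinase that splits the centrosomes, was at 14.8, 17.9, 24.0 and 37.2 CPM against 11.6, 29.3, 13.1 and 8.94 CPM. Its treated mice split, with TTI-101 2 above all controls but mouse 4 and the other 3 below every control. For Nek2 the fit gave a log2 fold change of -0.58 (SE 0.39, unadjusted p = 0.170), or -0.26 without Control 4. Of the other 4 genes, cyclin A2 (Ccna2) had -0.78 (SE 0.36, unadjusted p = 0.0521), and Plk1, Melk and Cdca3 had -0.25, -0.27 and -0.33, with unadjusted p from 0.271 to 0.508.

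Foxm1, the transcription factor of the G2/M genes, was at 5.36, 9.15, 7.05 and 11.5 CPM in the controls and at 4.45, 8.83, 5.89 and 7.78 CPM in the treated mice. The groups overlapped for 3 of the 4 treated mice. Its log2 fold change was -0.29 (SE 0.30, unadjusted p = 0.351) and -0.08 without Control 4, smaller than the median of the list in both fits.

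Among the genes of chromosome structure, Mki67 encodes Ki-67, the coat protein of mitotic chromosomes by which the study scored dividing tumor cells in sections. Its transcript was at 17.5, 26.1, 24.3 and 58.5 CPM in Control mice 1 to 4 and at 12.7, 18.9, 13.6 and 14.1 CPM in TTI-101 mice 1 to 4. Control 4 had more than any other mouse by a wide margin, and TTI-101 2 was the one treated mouse above a control, that of mouse 1. The means were 31.6 ± 18.3 CPM (SD, n = 4) and 14.8 ± 2.75 CPM. For Mki67 the fit gave a log2 fold change of -1.09 (SE 0.34, unadjusted p = 0.00859, adjusted p = 0.657), and without Control 4 it was -0.60 with an unadjusted p of 0.0143 by edgeR. The exact two-sided permutation test gave p = 0.0571 (n = 4 per group). Top2a, the topoisomerase that untangles sister chromosomes, was at 14.8, 22.1, 18.03 and 34.5 CPM against 12.0, 17.7, 12.8 and 14.2 CPM. It ranked the mice in the same order as Mki67 did, with Control 4 highest and TTI-101 1 lowest. For Top2a the fit gave a log2 fold change of -0.66 (SE 0.26, unadjusted p = 0.0302), or -0.36 without Control 4. Ncapg, a subunit of condensin I, which compacts the chromosomes, was at 2.13, 1.85, 1.39 and 3.13 CPM against 1.06, 1.08, 1.00 and 1.46 CPM. Only TTI-101 4 reached the lowest control. For Ncapg the fit gave a log2 fold change of -0.88 (SE 0.35, unadjusted p = 0.0291), or -0.63 without Control 4, and these values rest on 18 to 58 reads per library. Lcorl overlaps Ncapg on the opposite strand with 2034 reads against 251, so part of the Ncapg reads may not be its own. Ncaph, another subunit of condensin I, had -0.29 (SE 0.23).

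**Figure D2:**
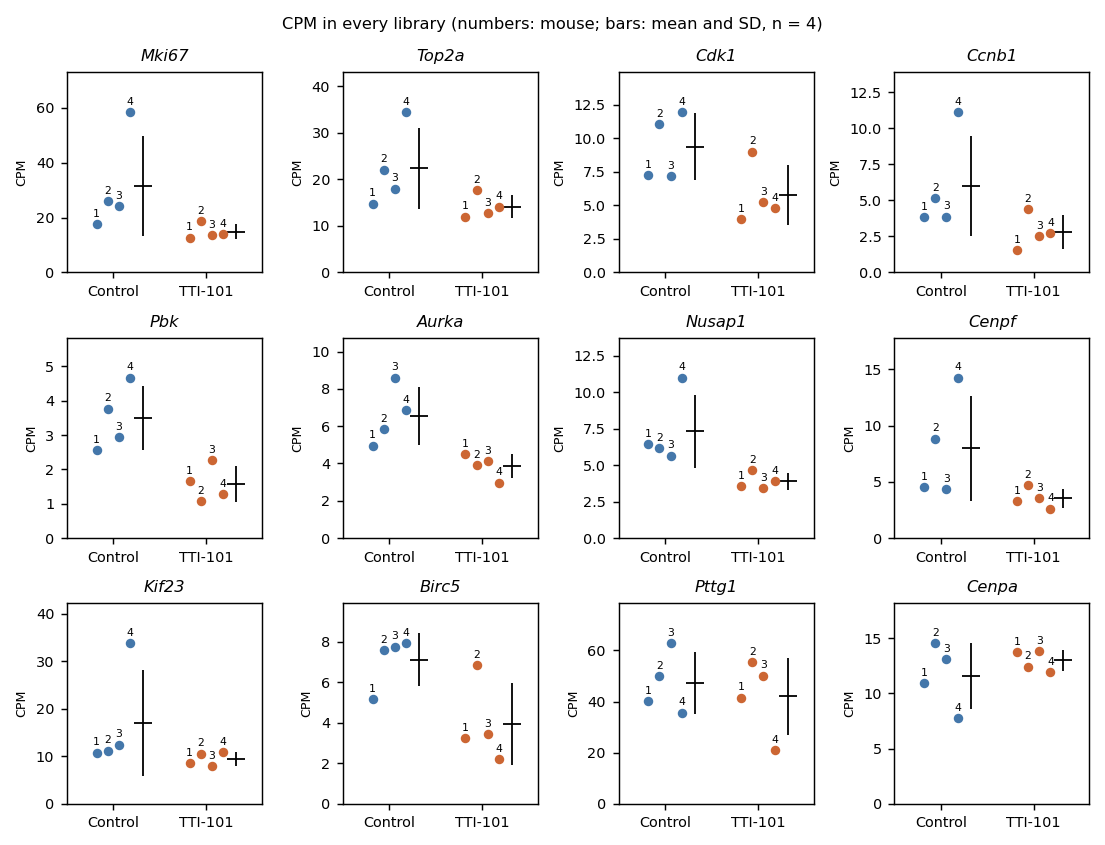
Each panel plots the CPM of 1 gene on its own axis from 0, with a point per mouse (number beside it, Control blue, TTI-101 orange) and the mean and SD of 4 mice beside each group. The groups do not overlap for Aurka, Pbk and Nusap1, Control 4 lies far above the others for Mki67, Cenpf and Kif23 (58.5, 14.3 and 33.8 CPM), and Cenpa and Pttg1 show no such order.

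Kinetochore and centromere genes gave both ends of the list. Cenpf, a large kinetochore protein that gathers in G2, was at 4.51, 8.85, 4.33 and 14.3 CPM in the controls and at 3.32, 4.68, 3.56 and 2.62 CPM in the treated mice. TTI-101 2 was just above Control 1 and Control 3, and the others were below every control. Its log2 fold change of -1.17 (SE 0.40, unadjusted p = 0.0145) was the lowest of the 45, and it was -0.72 with an unadjusted p of 0.0497 without Control 4. Cenpa, the histone H3 variant that marks centromeres, was at 10.9, 14.5, 13.1 and 7.74 CPM in the controls and at 13.8, 12.4, 13.8 and 11.9 CPM in the treated mice. Control 4, the highest library for most of the list, was the lowest of all 8 for Cenpa, and the treated mice lay inside the range of the controls. Its log2 fold change was 0.17 (SE 0.21, unadjusted p = 0.453) and 0.03 without Control 4. The other kinetochore genes, Cenpe, Ndc80, Nuf2, Spc24 and Spc25, had fold changes from -0.67 for the motor Cenpe to -0.32 for Spc25, none at an unadjusted p under 0.05. Ndc80, Nuf2, Spc24 and Spc25 form 1 complex that holds microtubule ends, and their fold changes of -0.42, -0.35, -0.58 and -0.32 had SE from 0.25 to 0.33, so that no order among them is given.

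The spindle checkpoint stood nearest to 0. Bub1, a checkpoint kinase at kinetochores, was at 6.79, 4.78, 2.44 and 7.42 CPM against 5.69, 4.50, 4.06 and 5.11 CPM, and every treated mouse lay inside the range of the controls. Ttk, the kinase also called MPS1, was at 1.39, 1.73, 0.999 and 1.66 CPM against 1.55, 1.56, 1.17 and 1.28 CPM, from 18 to 41 reads per library. Its treated mice also lay inside the controls' range. The log2 fold changes were -0.15 (SE 0.33, unadjusted p = 0.671) for Bub1, -0.06 (SE 0.32, unadjusted p = 0.867) for Ttk and -0.19 (SE 0.29, unadjusted p = 0.524) for Bub1b, which encodes BUBR1. Without Control 4 all 3 were above 0, at 0.06, 0.03 and 0.06. Whether the checkpoint genes differ from the other roles was not tested.

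Genes of anaphase and sister separation held the highest levels per length. Pttg1, which encodes securin, the inhibitor of separase, was at 40.2, 50.1, 62.8 and 35.7 CPM in the controls and at 41.5, 55.4, 50.2 and 20.98 CPM in the treated mice. The groups overlapped except for TTI-101 4, which was below all others. Its log2 fold change was -0.17 (SE 0.29, unadjusted p = 0.570), and it was lower, at -0.27, when Control 4 was left out. Cdc20, the activator of the anaphase-promoting complex, was at 11.04, 14.1, 9.10 and 22.4 CPM against 6.60, 14.1, 10.5 and 9.18 CPM, and 1 treated mouse was below every control. Its log2 fold change was -0.49 (SE 0.32, unadjusted p = 0.151), or -0.17 without Control 4. Elovl1 overlaps Cdc20 on the opposite strand with 111462 reads against 1800, and the strand setting of the count is not given in the sources used here, so part of the Cdc20 reads may not be its own. Ube2c, the ubiquitin-conjugating enzyme of the same complex, had -0.84 (SE 0.40, unadjusted p = 0.0580), and Espl1, which encodes separase, had -0.44 (SE 0.27).

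Spindle motors and assembly factors were all below 0, with a median log2 fold change of -0.55 and 3 of 7 at an unadjusted p under 0.05 (-0.42 and 2 without Control 4). Nusap1, which bundles spindle microtubules near chromosomes, was at 6.46, 6.16, 5.66 and 11.0 CPM in the controls and at 3.54, 4.68, 3.45 and 3.89 CPM in the treated mice. No treated mouse reached a control, so the exact two-sided permutation test could only give p = 0.0286. For Nusap1 the fit gave a log2 fold change of -0.91 (SE 0.27, unadjusted p = 0.00679), or -0.64 without Control 4. Tpx2, which activates Aurora A on the spindle, was at 7.92, 10.9, 7.16 and 14.7 CPM against 5.84, 7.21, 5.28 and 3.65 CPM. Only TTI-101 2 touched the control range, at the level of Control 3. For Tpx2 the fit gave a log2 fold change of -0.88 (SE 0.29, unadjusted p = 0.0126), or -0.64 without Control 4. Kif11, the motor that pushes the spindle poles apart, was at 8.07, 8.25, 5.22 and 11.2 CPM against 4.64, 6.25, 3.89 and 4.50 CPM. Again TTI-101 2 alone was above the lowest control. For Kif11 the fit gave a log2 fold change of -0.76 (SE 0.27, unadjusted p = 0.0181), or -0.57 without Control 4. The other 4, Kif2c, Kif4, Hmmr and Dlgap5, had -0.46, -0.45, -0.51 and -0.55. Hmmr depended on Control 4 alone, which was at 7.61 CPM against 1.94 to 3.41 CPM in all 7 other mice, and its log2 fold change without that mouse was 0.04.

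In the chromosomal passenger complex, which corrects faulty attachments and then moves to the central spindle, Birc5 encodes survivin. It was at 5.17, 7.59, 7.77 and 7.93 CPM in the controls and at 3.24, 6.85, 3.45 and 2.19 CPM in the treated mice. TTI-101 2 lay among the controls and the other treated mice lay below all of them. For Birc5 the fit gave a log2 fold change of -0.86 (SE 0.34, unadjusted p = 0.0313), or -0.79 without Control 4. Its partners Aurkb, the Aurora B kinase, and Cdca8, which encodes borealin, had -0.24 (SE 0.25) and -0.51 (SE 0.35), and for both TTI-101 2 was likewise the highest treated mouse.

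Of the 6 genes of the central spindle and cytokinesis, 3 had an unadjusted p under 0.05, and without Control 4 the count was 0 and the median -0.21 in place of -0.55. Kif23, the motor of the centralspindlin complex, was at 10.8, 11.2, 12.4 and 33.8 CPM in the controls and at 8.63, 10.6, 7.89 and 10.8 CPM in the treated mice. Control mice 1 to 3 lay close together, TTI-101 4 was just above the lowest of them, and Control 4 was far outside. For Kif23 the fit gave a log2 fold change of -0.84 (SE 0.37, unadjusted p = 0.0431), and without Control 4 it was -0.26. Ect2, the exchange factor that switches on RhoA at the cleavage plane, was at 4.95, 6.70, 5.10 and 17.1 CPM against 3.77, 4.26, 3.39 and 5.53 CPM. Control 4 was again far above the rest, and TTI-101 4 alone was above the lowest control. For Ect2 the fit gave a log2 fold change of -0.995 (SE 0.41, unadjusted p = 0.0344), or -0.38 without Control 4. Prc1, which crosslinks the central spindle, was at 9.28, 10.8, 6.32 and 16.3 CPM against 4.94, 7.99, 7.45 and 5.35 CPM. TTI-101 1 and TTI-101 4 were below every control. For Prc1 the fit gave a log2 fold change of -0.73 (SE 0.30, unadjusted p = 0.0359), or -0.44 without Control 4. Racgap1, the other part of centralspindlin, was at 12.8, 12.0, 10.8 and 13.9 CPM against 10.5, 11.4, 12.0 and 10.3 CPM. TTI-101 1 and TTI-101 4 were below every control by little. The fold change was -0.16 (SE 0.17, unadjusted p = 0.362), while its partner Kif23 had a value of -0.84. Kif20a and Anln, which act at the same site, had -0.31 and -0.37.

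**Figure D3:**
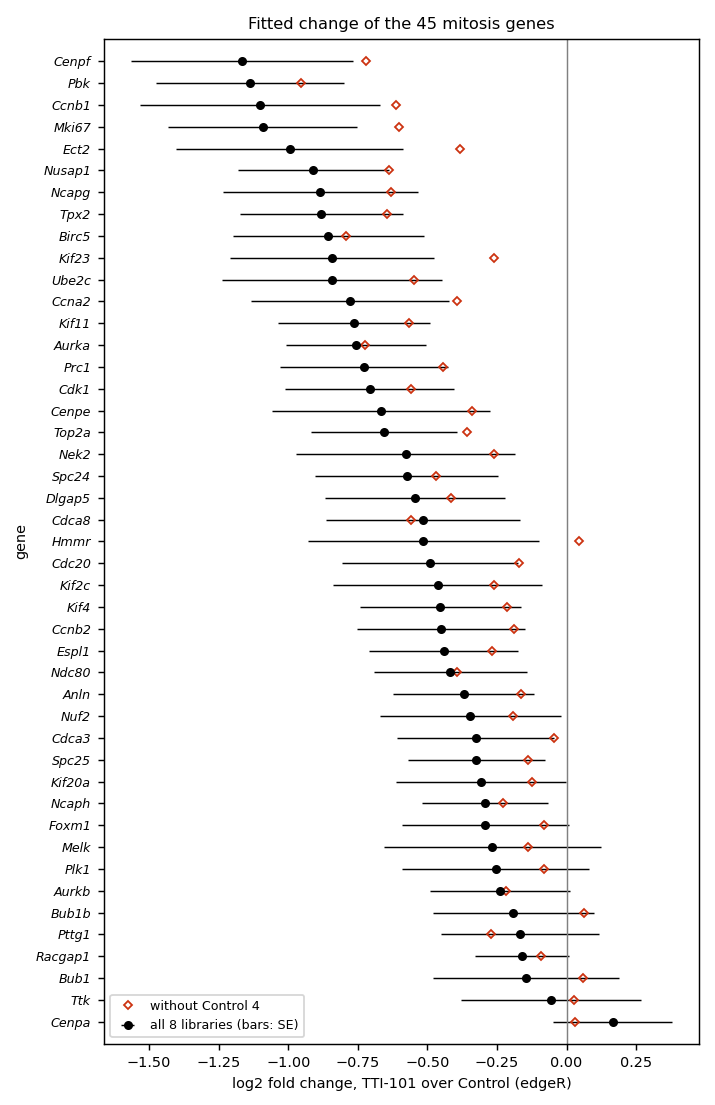
Black points are the fitted log2 fold change of TTI-101 over Control for each of the 45 genes with its SE, and open red diamonds the same value without Control 4. All black points but that of Cenpa lie below 0, and 5 diamonds lie above 0. The diamonds lie closer to 0 than the points for most genes, from a median of -0.51 to one of -0.27.

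Per length of the deposited gene model, levels spanned a wide range. Pttg1 was highest, at 23.6 ± 6.01 CPM per kilobase in Control and 21.01 ± 7.57 in TTI-101 (SD, n = 4). Cdc20 followed at 7.58 CPM per kilobase in the controls, then Nek2 at 5.20 and Ccnb2 at 4.50, and the spread over mice of these 3 neighbors overlapped. Ttk and Ncapg were lowest, at 0.294 and 0.301 CPM per kilobase in the controls. Within a group, the SD of log2 CPM had a median over the 45 genes of 0.447 in Control and 0.322 in TTI-101 (0.326 and 0.300 over all genes), and of 0.321 over Control mice 1 to 3.

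Other cell cycle genes gave the setting. Of 48 other mitosis genes, 47 were tested, 45 were below 0 and 9 had an unadjusted p under 0.05, with a median log2 fold change of -0.55. Without Control 4, 41 were below 0, 3 had an unadjusted p under 0.05 and the median was -0.28. Ncapg2, a condensin II subunit, was at 7.52, 8.07, 6.77 and 11.5 CPM against 4.41, 5.40, 4.67 and 4.93 CPM, with no overlap and a fold change of -0.80 (SE 0.23, unadjusted p = 0.00528). Spag5 and Ckap2, spindle proteins, had -0.98 and -1.05 with unadjusted p of 0.00655 and 0.0214, and Aspm, a spindle pole protein, had -0.99 with 0.0826. Genes of the preceding G1/S step and of DNA replication lay closer to 0. Of 33 tested, 28 were below 0 and 0 had an unadjusted p under 0.05 by edgeR, with a median of -0.15 (24 of 34, 0 and -0.07 without Control 4). Mcm2, a part of the replicative helicase, had -0.14 (SE 0.22), Tyms, the thymidylate synthase, -0.45, and Uhrf1 and Cdc6 -0.51 and -0.50. No test of the difference between the lists was made. The E2F, Rb and MuvB regulators had a median of 0.03, with 10 of 22 below 0, and E2f1 at 0.20. E2f7, a repressor form of E2F that is itself made late in the cycle, was at 3.27, 2.99, 3.55 and 2.43 CPM against 1.09, 2.58, 1.17 and 1.10 CPM, and its log2 fold change of -1.05 (SE 0.36, unadjusted p = 0.0150) was the only one of the 22 at an unadjusted p under 0.05. E2f5 and E2f4 had -0.25 and 0.22. Without Control 4 these regulators had 7 of 22 below 0, a median of 0.05 and again 1 at an unadjusted p under 0.05.

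Cell cycle inhibitors had no common direction, with 6 of 13 below 0 and a median of 0.01 (5 of 13 and 0.06 without Control 4, with 0 at an unadjusted p under 0.05 by edgeR in place of 1 in each direction). Cdkn1a, which encodes p21, was at 136, 142, 105 and 190.0 CPM against 133, 190.4, 91.2 and 113 CPM, and its groups overlapped (-0.12, SE 0.24). Cdkn2a, which encodes p16 and ARF, had -1.12 (SE 0.46, unadjusted p = 0.0336), with 5.05 CPM in Control 4 against 0.851 to 1.79 CPM in the 7 other mice. Cdkn2b had 0.51 (SE 0.23, unadjusted p = 0.0485) and Ccng2, which encodes cyclin G2, a cyclin linked to arrest, had 0.32 (SE 0.18).

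**Figure D4:**
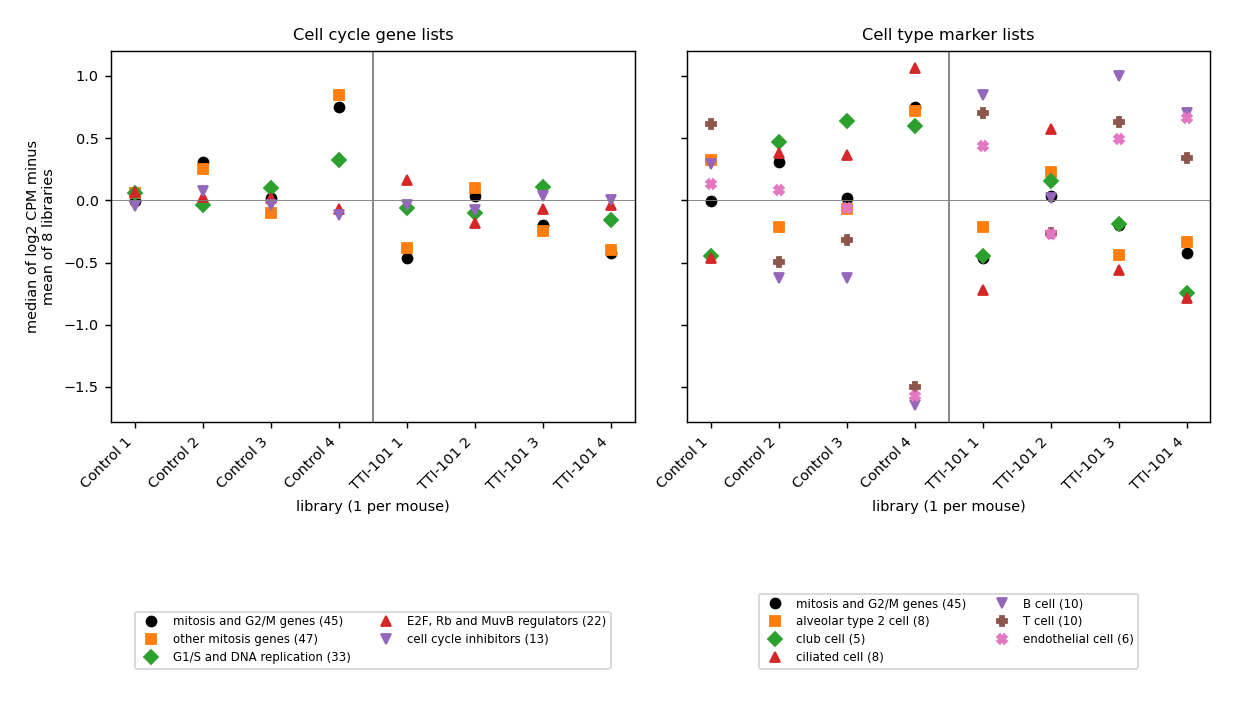
Points are the median over a list of genes of log2 CPM minus the gene's mean over 8 libraries, for each mouse, with cell cycle lists on the left, cell type markers on the right and the number of genes tested in brackets. The mitosis genes and the other mitosis genes follow each other across the mice, the inhibitors stay near 0, and in Control 4 the mitosis genes, ciliated and alveolar type 2 markers are high where B cell, T cell and endothelial markers are low.

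Markers of lung epithelial cells differed between the same mice, and Sftpc, the surfactant gene that marks lung, was at 16670 to 40620 CPM in all 8. Alveolar type 2 markers, surfactant and lamellar body genes, were below 0 for 8 of 8 genes (median -0.40) and summed to 41730 to 74200 CPM in the controls and 32690 to 59230 CPM in the treated mice. Sftpc had -0.40 (SE 0.31), and Sftpa1, Sftpb and Lamp3 had -0.40, -0.52 and -0.52, none at an unadjusted p under 0.05. Club cell markers were below 0 for 4 of 5 (median -0.55), with summed levels of 15580 to 37950 CPM against 13420 to 25340 CPM, and Scgb1a1, whose locus drives Cre in these mice, had -0.75 (SE 0.33, unadjusted p = 0.0450). Scgb3a2 had -0.68 and Cyp2f2 -0.55. Ciliated cell markers were below 0 for 8 of 8 (median -0.65), from 608.5 to 1435 CPM against 507.2 to 1003 CPM, with Foxj1, the ciliated cell transcription factor, at -0.46 (SE 0.42) and Ccdc39, Dnah5 and Dnah9 at -0.87, -1.21 and -1.11. Cells that build many cilia use relatives of cell cycle genes without dividing, and 8 of 8 of these (Gmnc, Myb, Deup1 and Mcidas among them, at -0.87, -0.72, -1.10 and -1.18) were below 0, with 4 at an unadjusted p under 0.05. By summed CPM, Control 4 was the highest control and TTI-101 2 the highest treated mouse in each of these 4 lists, as they were for the 45 mitosis genes (573.7 and 365.5 CPM). Without Control 4 the alveolar type 2 list had 7 of 8 below 0 and a median of -0.19, the club list 4 of 5 and -0.45, the ciliated list 8 of 8 and -0.37, and the multiciliated relatives 8 of 8 and -0.61. None of these lists then had a gene at an unadjusted p under 0.05 by edgeR, against 0, 1, 3 and 4 with all mice. The part of alveolar type 2, club and ciliated cells in the result was not tested.

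Markers of immune cells and of the blood went the other way. B cell markers were above 0 for 10 of 10, all with an unadjusted p under 0.05 (median 1.20), and summed to 119 to 353.4 CPM in the controls and 297.1 to 632.3 CPM in the treated mice, with Cd79a and Cd79b at 1.32 and 1.06. T cell markers were above 0 for 10 of 10 (median 0.74, 28.7 to 115.5 CPM against 63.6 to 129 CPM), with Cd3e, Trac, Cd6 and Lck at 0.80, 0.68, 0.89 and 0.71. Germinal center B cells divide fast, and 4 of their 6 markers passed the filter (3 of 4 above 0, median 0.17). The list summed to 98.3 to 123.9 CPM in the controls and 108.4 to 140.7 CPM in the treated mice, and Gcsam, S1pr2 and Mybl1 had -1.17, 0.45 and 0.29. Red cell precursors also divide, and their list summed to 62.4 to 237.4 CPM in the controls and 202.1 to 1529 CPM in the treated mice (5 of 5 tested above 0, median 2.50), carried by hemoglobin genes such as Hbb-bs, Hbb-bt and Hba-a1 (2.46, 2.66 and 2.50). Alas2, the heme synthesis enzyme of red cell precursors, had 2.87 (unadjusted p = 0.00363) from 1721 reads in all, and was named after its value was seen. Klf1, the factor that defines the precursors, was at no more than 0.601 CPM in any mouse and at 0 in Control 1, and Rhag and Slc4a1 were also below the filter. Alveolar macrophage markers (9 of 10 above 0, median 0.29, 441.7 to 1253 CPM against 701.3 to 989.9 CPM) included Marco at 0.23, Cidec at 1.09, Krt79 at 0.84 and Fabp1 at 0.83. Neutrophil markers (7 of 7 above 0, median 0.83, 40.8 to 315.9 CPM against 69.2 to 485.1 CPM) included S100a8 at 0.81, Mmp9 at 1.48, Retnlg at 0.84 and Csf3r at 0.83. Endothelial markers were above 0 for 6 of 6 (median 0.57, 876 to 2674 CPM against 2104 to 3679 CPM), with Pecam1, Kdr, Cdh5 and Cldn5 at 0.51, 0.57, 0.79 and 0.62, and fibroblast markers for 6 of 6 (median 0.26, 1142 to 2106 CPM against 1909 to 2623 CPM), with Col1a1, Pdgfra, Dcn and Col1a2 at 0.30, 0.73, 0.23 and 0.28. By summed CPM, Control 4 was the lowest control and TTI-101 2 the lowest treated mouse for B cell, T cell, macrophage, neutrophil, endothelial and fibroblast markers alike, the reverse of the mitosis genes. Without Control 4 the medians were 0.96 for B cell (8 of 10 at an unadjusted p under 0.05), 0.48 for T cell, 0.24 for germinal center, 3.04 for red cell, 0.15 for macrophage, 0.52 for neutrophil, 0.35 for endothelial and 0.15 for fibroblast markers. The part of these cells in the result was not tested. In the paper, lungs frozen for RNA came from mice that were first lavaged and then perfused with PBS. How much blood and how many airway cells remained in each lung is not given. Hemoglobin, macrophage and neutrophil levels cannot be told apart from such differences between lungs.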

How the data were processed

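RNA of 8 whole lungs was sequenced as poly(A)-selected, stranded paired-end libraries, 1 per mouse. The deposited values are raw counts of reads per gene that the authors' sequencing provider made, and the submitters' processing notes name STAR, DESeq2 and build mm10, while versions, the counter and its strand setting are not given in the sources used here. The gene lengths of the same table were used for CPM per kilobase. Genes with too few reads were removed (edgeR filterByExpr, minimum count 10), which left 17138 of 54532, and log2 fold changes of TTI-101 over Control were fitted with edgeR 4.0.16 (R 4.3.3) quasi-likelihood on TMM-scaled counts, with Benjamini-Hochberg adjustment over all genes tested. CPM are TMM-scaled. DESeq2 1.42.0, limma-voom 3.58.1, other scalings and filters, a replicate block and fits without each mouse were run as alternatives. The scripts were tested on simulated data. Library totals of 16075855 to 26873509 reads and the spread between mice both limit the precision.

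The 45 genes, their roles, the other lists and the tests were chosen with earlier results of these data known. All 45 genes are named. Every library's value is given for the 4 lowest and 4 highest fold changes, the 4 highest levels per length, genes with an unadjusted p under 0.05 or with groups that did not overlap, and Mki67, Top2a, Foxm1, Cdk1 and Ccnb1. From other lists the first gene and up to 3 of lowest p are named, except that some marker genes are not reported here. Fam64a was not found in the table by that name and Fen1 did not pass the filter. Where genes overlap on opposite strands or have a copy, their reads may be shared. Besides Cdc20, Ccnb2 and Ncapg, this applies among others to Prc1 and Ccnb1. Rccd1 had 1920 reads against the 1287 of Prc1, and the copy Ccnb1-ps had 62 against the 638 of Ccnb1.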

Additional observations from a re-analysis of the deposited data

Results flagged for a closer look

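Each of the 45 genes was compared in both groups for a mouse far from its group, as the gap to the nearest mouse over the range of the group's CPM, with Dixon's 95% critical value of 0.829 for 4 mice. Of 90 comparisons 5 passed, and chance alone gives about 4.5. All 5 were in the controls. Control 4 was the highest for Kif23 (gap 0.927, 33.8 CPM), Ect2 (0.857, 17.1 CPM) and Nusap1 (0.851, 11.0 CPM). Control 2 was the highest for Cdca8 (0.881, 6.46 CPM), and Control 1 was the lowest for Birc5 (0.877, 5.17 CPM). Without Control 4 the log2 fold changes of Kif23, Ect2 and Nusap1 were -0.26, -0.38 and -0.64.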

How the results depend on the processing

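All 45 genes had an adjusted p over 0.05 in every fit. Among all genes, DESeq2 called 4 and fits without 1 mouse called 0 to 1 at an adjusted p under 0.05. The number of the 45 with an unadjusted p under 0.05 (15, all lower) ranged from 6 to 20 without 1 mouse: 6 without Control 4, 7 without TTI-101 1, 7 without TTI-101 3, 9 without TTI-101 4 and 20 without TTI-101 2. The share of all genes that were lower at that threshold moved too, at 1.11%, 1.81%, 1.39%, 2.1% and 7.62% in these fits against 3.58%. Without both Control 4 and TTI-101 2, chosen after seeing the data, it was 14, against 6.56% of all genes, with a median log2 fold change of -0.45. Other tests, scalings and filters gave 12 to 17 and medians of -0.53 to -0.45, and library totals moved the median of all genes to 0.04. Signs changed without 1 mouse for Bub1b (0.062) and Hmmr (0.043, from -0.51) without Control 4, and for 3 genes described in full: Ttk ranged from -0.20 to 0.046 (0.046 without Control 2, 0.028 without Control 4, 0.019 without TTI-101 3), Pttg1 from -0.32 to 0.055 (0.00052 without Control 3, 0.055 without TTI-101 4) and Bub1 from -0.39 to 0.057 (0.057 without Control 4). Of 361 values of the described genes under alternatives, 355 kept their direction. With the replicate block 15 genes had an unadjusted p under 0.05 and the median was -0.53. The numbers are not known to pair mice: correlations of same-numbered mice were 0.393, 0.0822, 0.159 and 0.0707, and Control 3 correlated best with TTI-101 2 (0.160). With the promoter windows cut to 250 bases before the start, TTTGAA was in 13 of 39 (33.3%, against 16% of all windows). Depth limits Pbk, Ncapg and Ttk among others, with as few as 18 reads in a library.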
